A study of Mus musculus with 4 samples.

Results

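The transcription factors that specify and maintain midbrain dopamine neurons were followed through 4 mouse samples, as the 10 genes Pitx3, Nr4a1, Nr4a2, Nr4a3, Lmx1a, Lmx1b, Otx2, En1, En2 and Foxa2. They were taken by gene symbol from the probe annotation of the array, which gave 15 of 25697 probes, with 3 probes each for Nr4a3 and Lmx1a, 2 for Foxa2 and 1 for each other gene. Total RNA was labelled and hybridised to Illumina BeadChip arrays, 1 array for each of the groups APNL+AuEMF, APNL, Primary neuron and Fibroblast. From general knowledge of the published work on this method, APNL stands for a set of introduced factors that holds Pitx3, Nurr1 (the protein of Nr4a2) and Lmx1a. AuEMF stands for exposure to an electromagnetic field with nanoparticles of gold, and the labels spell out neither term. They give no mouse strain, age, time in culture, vector or brain region of the primary neurons, and no vector control. As every group is a single array, differences between groups come with no replicate, no error and no p-value, and the small number of arrays limits their precision. Each value is from bulk RNA, in which more cells that express a gene and more RNA per cell cannot be told apart.

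As background, dopamine neurons of the ventral midbrain arise from floor plate progenitors. Foxa2, a forkhead factor, and the LIM homeodomain factors Lmx1a and Lmx1b specify these progenitors, while Otx2 gives forebrain and midbrain identity and the engrailed genes En1 and En2 pattern the border of midbrain and hindbrain and keep dopamine neurons alive. Nr4a2, an orphan nuclear receptor, and Pitx3, a paired-like homeodomain factor, then switch on the genes of dopamine synthesis and transport, such as Th and Slc6a3. Nr4a1 and Nr4a3 are close relatives of Nr4a2 and are known as early response genes in many cell types.

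A probe counted as detected where its deposited detection p-value, which sets it against the negative control beads of its own array, was under 0.01. Of the 15 probes 4 were detected on the APNL+AuEMF array, 3 on the APNL array, 5 on the Primary neuron array and 2 on the Fibroblast array. In percent this was 26.7, 20.0, 33.3 and 13.3 of the member probes in the same order, against 45.8, 42.9, 47.8 and 41.4 of all probes. The genes detected somewhere were Nr4a2 and En1 on all 4 arrays, Otx2 on all but Fibroblast, En2 on APNL+AuEMF and Primary neuron, and Lmx1a on Primary neuron through 1 of its 3 probes. Pitx3, Nr4a1, Nr4a3, Lmx1b and Foxa2 were detected on no array. The 10 probes detected nowhere had intensities between 107 and 159 units and detection p-values between 0.13 and 0.91, where the lowest detected intensity was 221 units on APNL+AuEMF, 214 on APNL, 224 on Primary neuron and 216 on Fibroblast. A probe that is not detected does not show that its gene is silent: the probe of Snap25, a synaptic gene of all neurons, was also detected on no array, Primary neuron included.

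**Figure D1:**
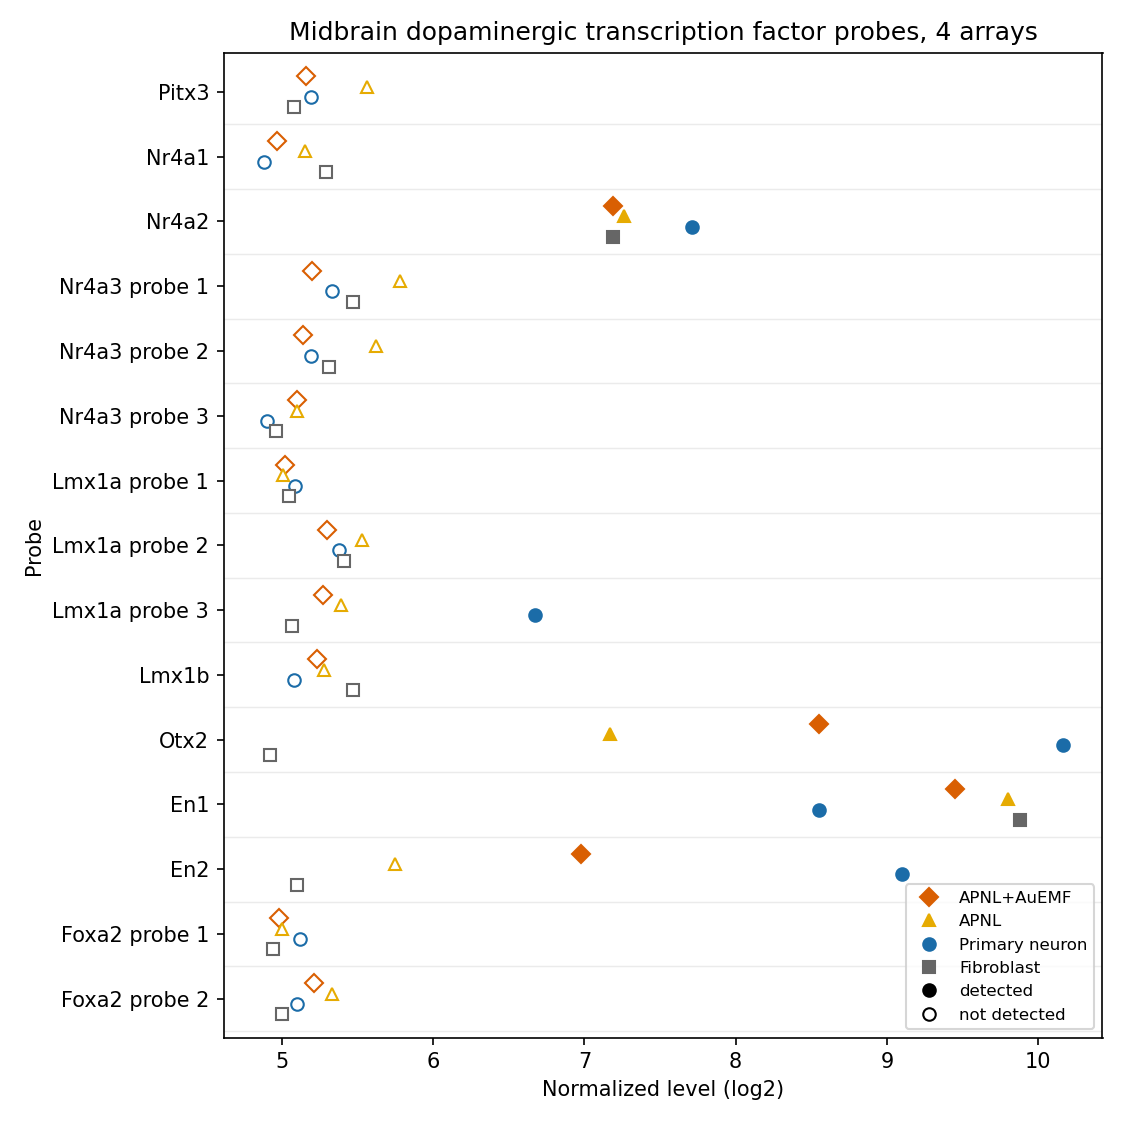
Normalized log2 level (x axis) of each of the 15 member probes (rows) on the 4 arrays, with filled symbols where the probe was detected and open symbols where it was not. Otx2 is highest on Primary neuron, lower on APNL+AuEMF, lower again on APNL and not detected on Fibroblast, En2 is detected on Primary neuron and, lower, on APNL+AuEMF, while En1 is lowest on Primary neuron, at 8.55, and Nr4a2 lies between 7.19 and 7.71 throughout.

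Of the factors taken to be introduced, Nr4a2 differed by less than 2-fold between either APNL array and Fibroblast, and Pitx3 and Lmx1a were not detected on these 3 arrays. The Nr4a2 probe had levels of 7.19 on APNL+AuEMF, 7.26 on APNL, 7.71 on Primary neuron and 7.19 on Fibroblast on the normalized log2 scale. Outside Primary neuron it thus lay close to the detection limit, and its difference was -0.01 for APNL+AuEMF and 0.07 for APNL against Fibroblast. The Pitx3 probe had intensities of 130.1 units on APNL+AuEMF, 149.1 on APNL, 136.4 on Primary neuron and 123.0 on Fibroblast, all under the detection limit. Lmx1a gave 138.7, 141.2, 253.8 and 122.0 units at its probe 3 (ILMN_2823980) in the same order, and its other probes stayed between 117.7 and 151.2 units on every array. Lmx1a was therefore detected in primary neurons by 1 probe of 3, with a detection p-value of 0.00376, and by none in the other samples. Where the probes lie on their transcripts was not analysed here, so whether they would read an introduced coding sequence was not tested, and these values do not check the labels.

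Otx2 was the member with the widest range. Its probe (ILMN_2691752) had an intensity of 535.8 units on APNL+AuEMF, 230.2 on APNL, 1465 on Primary neuron and 109.8 on Fibroblast, where the detection p-value was 0.871. The normalized log2 levels were 8.55, 7.17, 10.16 and 4.92 in the same order. Primary neuron was thus the highest, APNL+AuEMF lay above APNL, and the Fibroblast array held no signal above its control beads. Against Fibroblast, and setting the Fibroblast level at the lowest detected level of its array (7.13), Otx2 was at least 2.67-fold higher on APNL+AuEMF and at least 8.18-fold higher on Primary neuron. For APNL the same bound was only 1.03-fold. Between APNL+AuEMF and APNL, where the probe was detected on both, the difference was 1.38 on the log2 scale, and 1.05% of all compared probes differed by as much or more in that direction. Against Primary neuron, Otx2 differed by -1.61 on APNL+AuEMF and by -2.99 on APNL. Without background correction the differences of APNL+AuEMF were 0.93 against Fibroblast (a bound) and 0.91 against APNL, so that neither reached 2-fold.

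**Figure D2:**
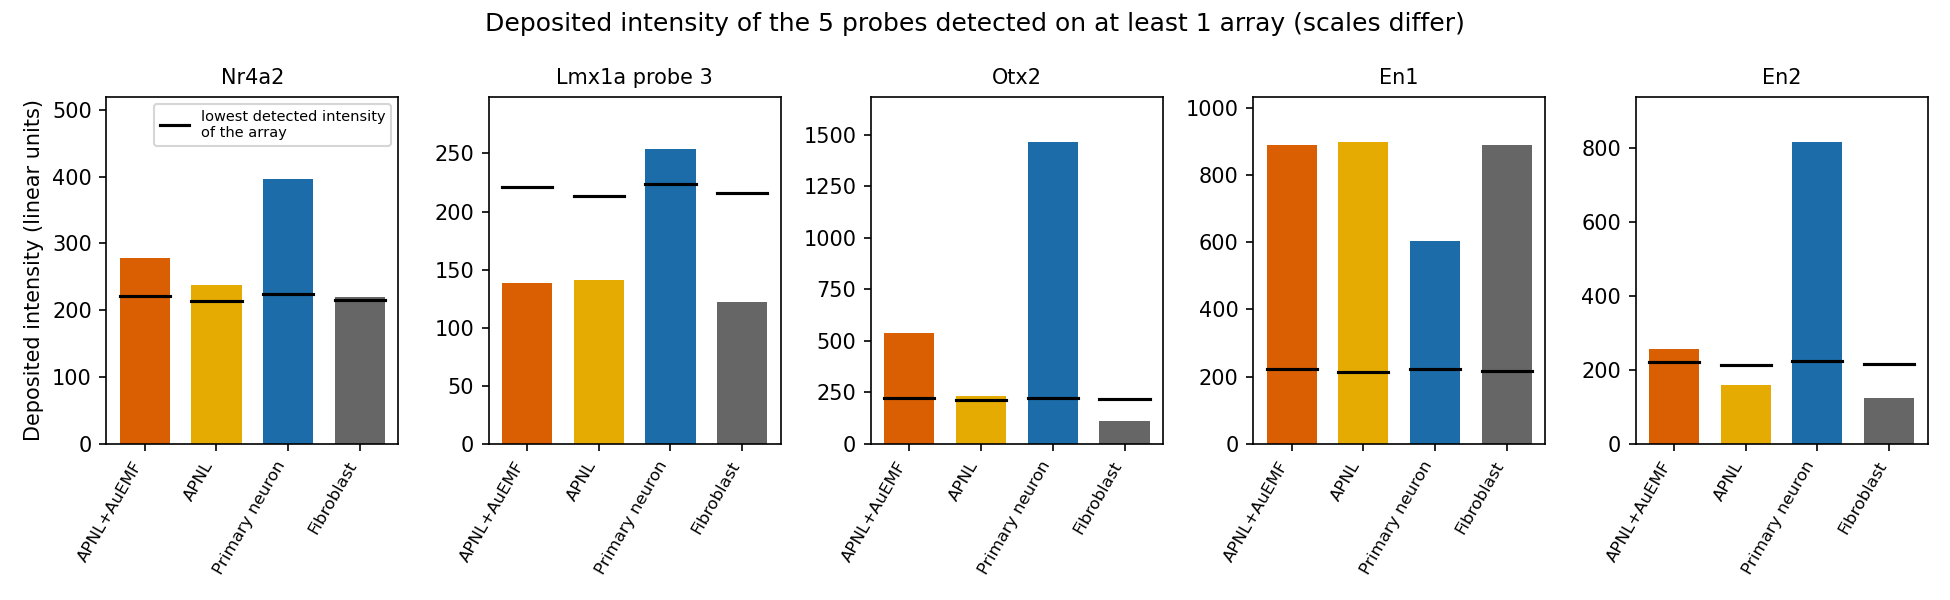
Deposited linear intensity (y axis, a scale of its own in each panel, starting at 0) of the 5 member probes detected on at least 1 array, with a bar for each array and a black line at the lowest intensity detected on that array. Otx2 rises above the line on 3 arrays and En2 on 2 arrays, Nr4a2 stays near it outside Primary neuron, and En1 stands at 602.6 units on Primary neuron against 889.4 to 898.5 units on the other arrays.

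En2, which patterns the midbrain and hindbrain and is also expressed in the developing cerebellum, was also higher on Primary neuron than on APNL+AuEMF. Its intensities were 255.7 units on APNL+AuEMF, 157.8 on APNL, 816.7 on Primary neuron and 124.1 on Fibroblast, and its normalized log2 levels 6.98, 5.75, 9.10 and 5.10. It was detected on APNL+AuEMF and Primary neuron, with detection p-values of 0.00125 and 0, and on neither other array. En2 was at least 3.92-fold higher on Primary neuron than on Fibroblast. On APNL+AuEMF its normalized level of 6.98 was under the lowest detected level of the Fibroblast array, 7.13, so no fold against Fibroblast is given. Before normalization its 255.7 units lay above the lowest detected intensity on Fibroblast, 216 units. They were 2.06 times the Fibroblast signal, which was not above background. Against APNL the bound was 1.03-fold. Between APNL+AuEMF and Primary neuron, both detected, the difference was -2.13.

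On the linear scale, the distance between the Fibroblast and the Primary neuron level of Otx2 can be taken as 100%. As the Fibroblast signal was not above background, the place of the other arrays depends on how that signal is set and on the processing. On APNL+AuEMF Otx2 stood at 23.3% with Fibroblast at the lowest detected level of its array, and at 30.8% with the measured Fibroblast signal. On APNL the same settings gave 0.368% and 10.2%. Among the genes at least 4-fold higher on Primary neuron than on Fibroblast, 217 were detected on all 4 arrays. Their median was 27.5% on APNL+AuEMF (quartiles 20.7% and 44.2%) and 10.6% on APNL (7.69% and 15.3%). Otx2 was inside these quartiles on APNL+AuEMF under both settings, and on APNL with the measured signal but not with the bound. For En2, which lay under the Fibroblast bound on APNL+AuEMF and was not detected on APNL, no such value is given. All of these percentages use the same Fibroblast and Primary neuron arrays, so they are a description and not independent of each other.

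The 3 genes nearest to Otx2, by the distance between centred log2 levels over the 4 arrays among 2226 candidate genes, were Fam155a at a distance of 0.169, Wnt7b at 0.196 and Rab6b at 0.207. Fam155a had levels of 9.73 on APNL+AuEMF, 8.57 on APNL, 11.48 on Primary neuron and 6.29 on Fibroblast. The nearest to En2 were Atp2b2, a calcium pump gene, Apba2 and the synaptic vesicle gene Sv2a. En2 was detected on only 2 arrays and Otx2 on 3, so these distances include levels not above background, and the order of the nearest genes is not a measured one. With 4 arrays such likeness describes these samples only.

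En1 went the other way. Its probe (ILMN_3163581) was detected on every array, at 889.4 units on APNL+AuEMF, 898.5 on APNL, 602.6 on Primary neuron and 889.4 on Fibroblast. The normalized log2 levels were 9.45, 9.80, 8.55 and 9.88. En1 was lower on Primary neuron than on Fibroblast by a log2 difference of -1.33, or 2.52-fold, and 7.54% of all compared probes had a difference as low or lower. APNL+AuEMF differed from Fibroblast by -0.43 and APNL by -0.08. For comparison, probes detected on both arrays had differences between -0.90 and 1.21 for APNL+AuEMF against Fibroblast, and between -0.42 and 0.49 for APNL against Fibroblast, with 2.5% of probes beyond each end. As background, En1 also marks a lineage of dermal fibroblasts in mouse back skin. The fibroblast markers moved in the same direction on Primary neuron, with 6 of 8 lower than on Fibroblast, 0 higher and a median of -1.25, where 14.9% of all genes were lower. Skeletal muscle markers were lower there for 7 of 7 compared genes, with a median of -2.42. The part of these cells in the En1 level was not tested. The genes nearest to En1 were Crlf3, the LIM protein gene Pdlim1 and the endophilin gene Sh3gl1, at distances of 0.0112, 0.0212 and 0.0306.

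Promoter windows of RefSeq are shown for the detected members that have an entry, to let the letters be set beside the levels above. En2 had no entry, and Lmx1a, detected by 1 probe near the limit, is left out. Each window holds the 250 bases before a transcript start in GRCm38.p6, 5′ to 3′ on the strand of the gene. Capitals mark matches on either strand to any of the motifs searched. The homeodomain core is TAATTA, which reads the same on both strands. The bicoid class of homeodomain proteins, with Otx and Pitx, reads TAATCC. The core of the cAMP response element is TGACG, and the full element TGACGTCA, which contains the core on both strands, was found in no member window. For NR4A receptors bound as monomers, a shortened form of the motif was searched, the half-site with a single leading A, AAGGTCA. Of the general promoter elements, the TATA box was searched as TATAAA. The CCAAT box was searched by its name. The windows are chr2:57124004-57124253 on the minus strand for Nr4a2, chr14:48667645-48667894 and chr14:48665110-48665359 on the minus strand for start sites 1 and 3 of the 4 starts of Otx2, and chr1:120602237-120602486 on the plus strand for En1.
Nr4a2: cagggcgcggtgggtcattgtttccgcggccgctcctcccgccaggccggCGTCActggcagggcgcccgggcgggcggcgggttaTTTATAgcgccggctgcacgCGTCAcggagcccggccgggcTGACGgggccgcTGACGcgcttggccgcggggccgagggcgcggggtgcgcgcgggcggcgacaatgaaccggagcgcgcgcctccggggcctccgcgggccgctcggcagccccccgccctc
Otx2 start site 1: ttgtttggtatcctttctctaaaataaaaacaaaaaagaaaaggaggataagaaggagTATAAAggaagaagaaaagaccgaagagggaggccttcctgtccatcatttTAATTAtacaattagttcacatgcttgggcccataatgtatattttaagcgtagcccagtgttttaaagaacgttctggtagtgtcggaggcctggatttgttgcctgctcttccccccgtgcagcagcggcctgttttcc
Otx2 start site 3: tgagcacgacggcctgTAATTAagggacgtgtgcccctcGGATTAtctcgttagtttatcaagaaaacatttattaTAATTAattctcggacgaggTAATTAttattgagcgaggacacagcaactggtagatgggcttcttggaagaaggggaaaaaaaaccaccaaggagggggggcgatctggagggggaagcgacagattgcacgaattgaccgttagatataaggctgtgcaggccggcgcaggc
En1: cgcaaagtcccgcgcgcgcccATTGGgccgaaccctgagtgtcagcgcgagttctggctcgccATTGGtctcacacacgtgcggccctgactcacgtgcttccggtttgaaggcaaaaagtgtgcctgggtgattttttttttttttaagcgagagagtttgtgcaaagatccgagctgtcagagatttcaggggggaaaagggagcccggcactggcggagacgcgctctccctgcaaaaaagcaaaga
The Nr4a2 window holds TATAAA 1 time (12.4% of all windows hold it) and TGACG 4 times, as do those of Nr4a1 and Nr4a3, which are not shown. Of all 32851 RefSeq windows of this length, 17.8% hold TGACG at least once and 0.137% at least 4 times. These shares were not matched for GC content, which was 80.0% for Nr4a2, 74.4% for Nr4a1 and 63.6% for Nr4a3. The median of all windows was 52.4%. The Otx2 windows of start sites 2 and 4, which hold neither TAATTA nor TAATCC, are not shown. Start site 2 holds TGACG and CCAAT 1 time each, and start site 4 none of the motifs. The window of Otx2 start site 3 holds TAATTA 3 times and TAATCC 1 time, and that of start site 1 holds TAATTA and TATAAA 1 time each. Of all windows 4.84% hold TAATTA at least once, 0.0487% hold TAATTA at least 3 times and 6.25% hold TAATCC at least once. The En1 window holds CCAAT 2 times (33.8% of all windows hold it) and none of the other motifs. AAGGTCA was in no member window and in 4.08% of all windows. These matches are descriptions of letters and not binding sites.

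In the NR4A family only Nr4a2 was detected. Its intensities were 278.4 units on APNL+AuEMF, 237.8 on APNL, 396.8 on Primary neuron and 220.4 on Fibroblast, and in this order the arrays themselves had median intensities of 192, 174, 207 and 169 units. After normalization only Primary neuron stood apart, by 0.51 against Fibroblast, which is under 2-fold. Nr4a1 had between 107.3 units (Primary neuron) and 134.6 units (Fibroblast), and the 3 probes of Nr4a3 had between 109.2 and 158.8 units, none of them above background on any array. Among 19 measured genes of the early response list 15 could be compared between APNL+AuEMF and Fibroblast, of which 1 was higher, 0 lower and 14 neither, where 5.22% of all genes were higher and 1.68% lower. The gene that was higher was Ier3, a survival gene induced by stress, by 1.99, and it was also higher than on APNL by 1.05 and, on Primary neuron, higher than on Fibroblast by 2.24. On Primary neuron the zinc finger genes Egr2, Klf2 and Klf4 were lower than on Fibroblast, by -1.73, -1.70 and -1.21. Fos, the founding gene of this class, had levels of 10.84, 10.89, 11.04 and 10.74 on APNL+AuEMF, APNL, Primary neuron and Fibroblast. Of the NR4A partners and corepressors, 0 of 8 compared genes were higher or lower on APNL+AuEMF against Fibroblast. The shares of all genes were 5.22% higher and 1.68% lower. On APNL this was 0 of 7, where 1.55% of all genes were higher and 0.00% lower. On Primary neuron 0 of 9 were higher and 1 lower, where 11.0% of all genes were higher and 14.9% lower. The lower gene was Rcor1, a subunit of the CoREST corepressor that works with Nr4a2, by -1.15.

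Few member probes could be compared, and the share of all compared probes is given beside each count. For APNL+AuEMF against Fibroblast 4 member probes could be compared (detected on at least 1 of the arrays), of which 1 was higher by 2-fold or more and 0 lower, where 4.65% of 11927 compared probes were higher and 1.61% lower. Between APNL and Fibroblast 3 were compared and 0 were higher or lower, where 1.31% of all were higher and 0.00% lower. Between Primary neuron and Fibroblast 5 were compared, 2 were higher (Otx2 and En2) and 1 lower (En1), where 11.2% of all were higher and 13.8% lower. In the comparison of APNL+AuEMF with APNL 1 of 4 was higher, again Otx2, and 0 lower, where 2.91% of all were higher and 0.719% lower. Against Primary neuron, APNL+AuEMF had 0 of 5 higher and 2 lower (Otx2 and En2), where 6.70% of all were higher and 7.17% lower. APNL had 1 higher (En1, by 1.25) and 2 lower (Otx2 by 7.97-fold and En2 by at least 4.50-fold), where 11.8% of all were higher and 11.4% lower. The compared probes include some for which no fold is given and which count as neither. These were En2 for APNL+AuEMF against Fibroblast and Lmx1a probe 3 for Primary neuron against Fibroblast and APNL against Primary neuron. The comparisons share arrays, and with 1 array a group the difference between the members' share and that of all probes was not tested.

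A list of 24 genes named here as dopamine neuron targets was read next, of which 22 had a probe. Whether the members control these genes was not tested. Th, the rate-limiting enzyme of dopamine synthesis, had levels of 5.15 on APNL+AuEMF, 5.02 on APNL, 5.48 on Primary neuron and 5.09 on Fibroblast and was detected on none of them. Slc6a3, the dopamine transporter, Slc18a2, the vesicular monoamine transporter, the dopamine receptor gene Drd2 and the neurotrophic factor receptor gene Ret were also detected on no array. On APNL+AuEMF, compared with Fibroblast, 2 of 12 compared genes were higher and 1 lower, with a median of 0.18, where 5.22% of all compared genes were higher, 1.68% lower and the median was -0.07. Those higher were Gch1, the first enzyme of the tetrahydrobiopterin cofactor pathway, by 1.83, and Sncg, a synuclein gene, by 1.03, and the lower one was Ddc, which encodes aromatic amino acid decarboxylase, by -1.07. Between APNL and Fibroblast 0 of 10 were higher or lower (1.55% and 0.00% of all genes). Set against APNL, 2 of 12 were higher on APNL+AuEMF, Gch1 by 1.14 and Sncg by at least 2.39-fold, against 3.14% of all genes higher and 0.759% lower, and 0 were lower. Set against Primary neuron, 2 of 12 were higher on APNL+AuEMF (Dlk1 by 3.19 and Ddc by 1.63) and 1 lower (Ntsr1 by -1.19), where 7.42% of all genes were higher and 6.74% lower. For APNL 4 of 13 were higher than on Primary neuron and 5 lower, where 12.7% of all genes were higher and 10.7% lower.

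In primary neurons the genes of this list went both ways. Between Primary neuron and Fibroblast 4 of 13 were higher and 4 lower, where 11.0% of all genes were higher and 14.9% lower. Higher were Gch1 by 1.83, Sncg by 1.58, the chromatin organiser gene Satb1 by 1.13 and the neurotensin receptor gene Ntsr1 by at least 2.93-fold. Lower were Dlk1, a Notch family ligand made in dopamine neurons and in mesenchyme, by -3.73, Ddc by -2.70, the neurotrophin gene Bdnf by -1.07, and Vip, a neuropeptide gene, by at least 2.13-fold. Aldh1a1, a retinaldehyde dehydrogenase of ventral dopamine neurons, was detected on every array but Primary neuron, at 6.78 on APNL+AuEMF, 7.52 on APNL and 7.20 on Fibroblast. Cck, a neuropeptide gene, was detected on APNL+AuEMF and Primary neuron only, at 7.80 and 8.03.

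**Figure D3:**
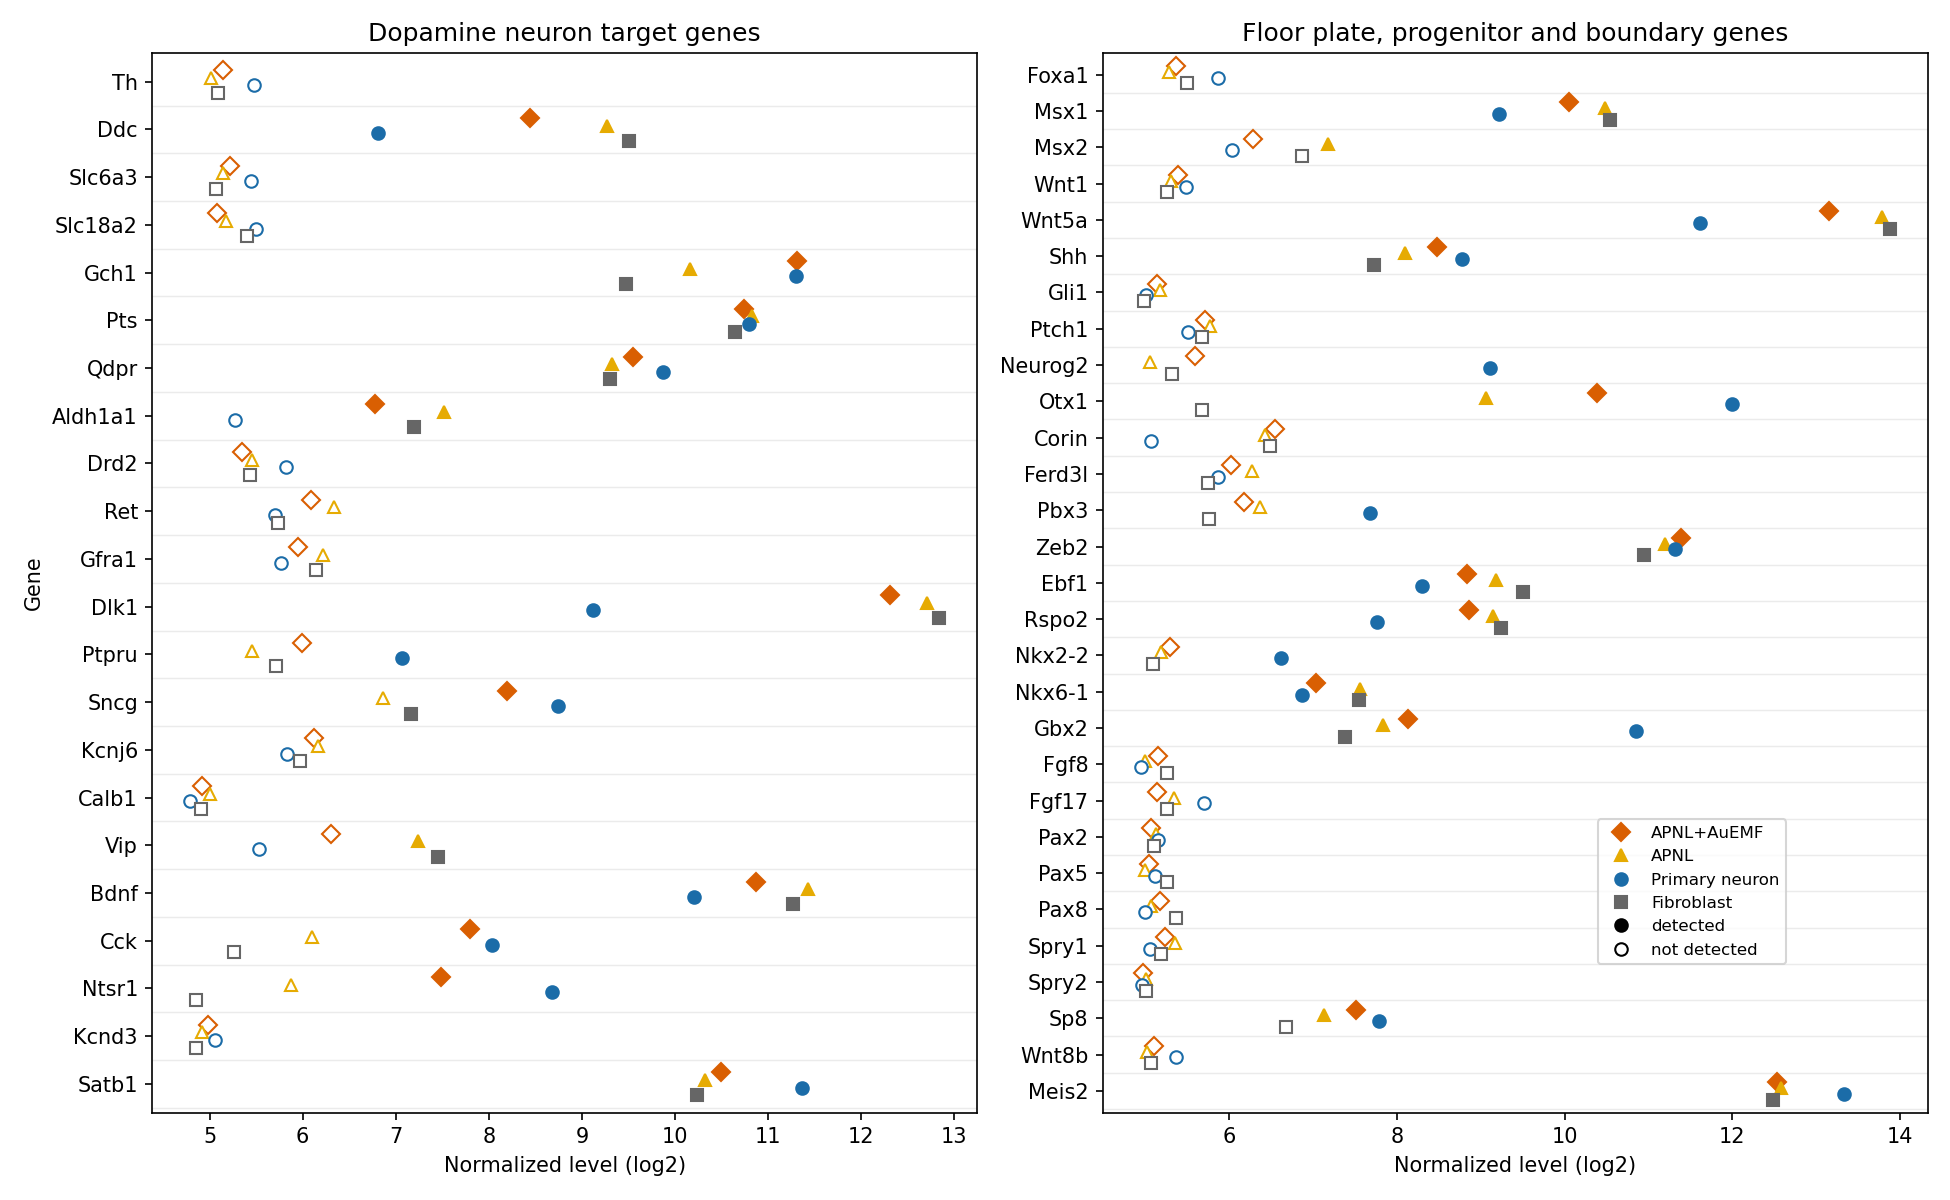
Normalized log2 level (x axis) of the measured genes of the dopamine neuron target list (left) and of the floor plate, progenitor and boundary lists (right) on the 4 arrays, filled where detected. Th, Slc6a3, Slc18a2, Wnt1 and Foxa1 are open on every array, while Otx1 and Gbx2 are highest on Primary neuron, at 12.00 and 10.85.

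Of 18 measured floor plate and progenitor genes, 8 could be compared between APNL+AuEMF and Fibroblast, with 1 higher, 0 lower and a median of -0.43, where 5.22% of all genes were higher, 1.68% lower and the median was -0.07. The gene that was higher was Otx1, the closest relative of Otx2. Otx1 had levels of 10.39 on APNL+AuEMF, 9.06 on APNL, 12.00 on Primary neuron and 5.67 on Fibroblast, where it was not detected, the same order of arrays as Otx2. It was at least 9.58-fold higher on APNL+AuEMF than on Fibroblast, at least 3.81-fold on APNL and at least 29.2-fold on Primary neuron. Foxa1, the relative of Foxa2, and Foxa3 were detected on no array, nor were Wnt1, the midbrain Wnt ligand, the Shh targets Gli1 and Ptch1, or Corin, a floor plate protease. Shh itself, the floor plate signal, was detected on all arrays at 8.48, 8.10, 8.77 and 7.72 on APNL+AuEMF, APNL, Primary neuron and Fibroblast, and was higher on Primary neuron by 1.06 against Fibroblast. Neurog2, a proneural gene, was detected on Primary neuron only, at least 3.94-fold above Fibroblast, and Pbx3 likewise, at 7.68, and at least 2.14-fold lower on APNL+AuEMF than there. The genes lower on Primary neuron than on Fibroblast were Wnt5a by -2.27, Rspo2 by -1.47, Msx1 by -1.33 and Ebf1 by -1.19, all of which mesenchymal cells also express. Against Fibroblast, none of these 4 was lower by 2-fold on APNL+AuEMF or APNL, where 1.68% and 0.00% of all genes were.

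At the midbrain-hindbrain boundary, 3 of 11 measured genes could be compared in each pair. The hindbrain factor gene Gbx2, which opposes Otx2 at this boundary, had levels of 8.13 on APNL+AuEMF, 7.83 on APNL, 10.85 on Primary neuron and 7.38 on Fibroblast. It was higher on Primary neuron than on Fibroblast by 3.46. The differences from Fibroblast on APNL+AuEMF, 0.75, and on APNL, 0.45, were under 2-fold. The boundary signal Fgf8 and the paired box genes Pax2, Pax5 and Pax8 were detected on no array.

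A further list held the LIM homeodomain family of Lmx1a and Lmx1b together with its cofactors, and all 18 listed genes had a probe. Between APNL+AuEMF and Fibroblast 11 could be compared, with 2 higher and 0 lower, where 5.22% of all compared genes were higher and 1.68% lower. Lmx1b itself stayed under the detection limit, at 135.5 units on APNL+AuEMF, 135.4 on APNL, 126.6 on Primary neuron and 142.7 on Fibroblast. The higher genes were Lmo2, a LIM-only cofactor also known from blood cells, by 2.23 and Lhx2, a forebrain factor, by at least 2.04-fold. On Primary neuron 5 of 13 were higher than on Fibroblast and 0 lower, where 11.0% of all genes were higher and 14.9% lower. They were Lmo3 by at least 5.31-fold, Lhx2 by at least 5.28-fold, Lmo2 by 2.38, Isl1, a factor of motor and sensory neurons, by 2.37 and Ssbp2 by 1.70. Of these, Lmo3, Lmo2 and Ssbp2 are cofactors and not members of the family. Lhx9 differed there by 0.80, which is under 2-fold. Isl1 differed from Fibroblast by -0.12 on APNL+AuEMF and by 0.25 on APNL.

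The markers fixed for other cell types gave the setting of these levels. Of 8 pan-neuronal markers 7 were detected on APNL+AuEMF, 6 on APNL, 7 on Primary neuron and 5 on Fibroblast, with summed linear levels of 20700, 10200, 65600 and 4970. Those of the forebrain neuron list, which holds cortical and GABAergic genes, summed to 9810, 4220, 21900 and 954 in the same order over 7 measured genes, with Neurod6 and Lhx6 detected nowhere. The dopamine neuron markers were detected for 3, 3, 2 and 3 of 9 genes. Otx2 is also a gene of the choroid plexus and of cerebellar precursors, so lists for both were added after the values were seen. Of 8 measured choroid plexus genes 4, 4, 5 and 3 were detected, with sums of 10100, 9070, 15200 and 8360. Ttr of this list was at least 53.8-fold higher on Primary neuron than on Fibroblast, Sostdc1 and Aqp1 were lower there by -2.24 and -1.10, and Kl, Folr1 and Kcne2 were detected nowhere. Of 12 cerebellar genes 5, 5, 7 and 4 were detected, with sums of 4740, 4220, 8560 and 3610. Where 11.0% of all genes were higher on Primary neuron than on Fibroblast and 14.9% lower, 3 of 7 compared cerebellar genes were higher and 0 lower. These were Cadps2 by 5.06-fold, Cbln1 by 4.99-fold and Calb2 by at least 8.17-fold, while Neurod1 and Barhl1 were detected on Primary neuron only and Atoh1, Pax6, Zic2, Gabra6 and Pcp2 nowhere. On APNL+AuEMF 3 of 5 were higher than on Fibroblast and 0 lower, where 5.22% of all genes were higher. They were Calb2 by at least 4.69-fold, Cadps2 by 3.46-fold and Cbln1 by 2.13-fold. Ttr was the 1 of 4 choroid plexus genes higher there, by at least 16.2-fold, with 0 lower. On APNL 1 gene of each list was higher and 0 lower, Ttr by at least 6.73-fold and Cadps2 by 2.08-fold. The share of all genes higher there was 1.55%. The part of choroid plexus and cerebellar cells in the Otx2 and En2 levels was not tested. Macrophage markers were higher on APNL+AuEMF than on Fibroblast for 4 of 5 measured genes, where 5.22% of all genes were higher. Their sums were 20000 on APNL+AuEMF, 2240 on APNL, 1100 on Primary neuron and 2440 on Fibroblast. The part of macrophages in the levels of Gch1, Ier3 and Lmo2 on APNL+AuEMF was not tested. Skeletal muscle markers were lower on APNL+AuEMF than on Fibroblast for 5 of 7 genes, where 1.68% of all genes were lower. Their sums were 13900, 25900, 800 and 29200 in the same order of arrays. Fibroblast markers were detected for 8 of 8 genes on every array, with sums of 147000, 123000, 70700 and 133000. On APNL+AuEMF 1 of the 8 was higher than on Fibroblast, Dcn by 1.06, and 0 lower, with a median of 0.29. All sums given here weigh the brightest genes most and include levels not above background.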

How the data were processed

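The data are 4 Illumina BeadChip arrays of gene expression, 1 per group, from 0.55 ug of total RNA each, per the labels' protocols. Per the submitters' processing notes, GenomeStudio 2011.1 was used. The deposited probe intensity is linear and not normalized between arrays, per the file headers, and stands beside a deposited detection p-value in steps of 1 in 798. The authors' deposited log2 values equal a quantile normalization of log2 intensity to within 5e-07. How scanner background was handled is not given in the sources used here.

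Levels were computed from the intensity with neqc of limma 3.58.1 in R 4.3.3 (normexp background from controls inferred from detection p-values, offset 16, log2, quantile normalization). Of the probes 23978 had 1 gene symbol, 0 several and 1719 none. In lists a gene is its probe with the highest mean level, which gave 16593 genes. Probes or genes detected on at least 1 of the compared arrays were compared, and where only 1 detected them the other took the higher of its own level and its array's lowest detected level (6.58 on APNL+AuEMF, 6.93 on APNL, 6.36 on Primary neuron and 7.13 on Fibroblast), which gives an "at least" fold. Where that did not leave the detected side higher, no fold is given. Such a probe or gene was set to a difference of 0 and still counted as compared and as neither. Higher and lower mean 2-fold or more. The lists were 9 pathway lists of 111 genes (100 with a probe) and 6 marker lists. The genes named are all members, every pathway list gene with a 2-fold difference in any of 6 comparisons (otherwise the one with the highest level), and the 3 genes nearest to each member detected on at least 2 arrays with levels spanning 1 log2 unit. Marker and added lists are given by counts and sums, also where their genes met the same rule, and the few of them named, like list genes without such a difference, were chosen after their values were seen. The members and lists were chosen with earlier results of these data known. Normalization was tested on simulated data with changes placed in 200 probes of clear signal, so that test did not cover values near background. Alternatives were other background corrections, scaling, the deposited log2 values, other detection and fold thresholds and the mean of a gene's probes. Python 3.11.15, numpy 2.4.6, pandas 2.3.3 and matplotlib 3.10.9 were used.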

Additional observations from a re-analysis of the deposited data

How the results depend on the processing

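With 1 array per group no left-out replicate could be tried, and no paired analysis was possible because each group has 1 array. The sign of each member difference of 2-fold or more was the same under every alternative run, while scaling turned the small Nr4a2 differences of APNL+AuEMF to 0.18 against Fibroblast and 0.07 against APNL, and counts of 0 to 2 member probes move easily. Against Fibroblast, member probes higher on APNL+AuEMF (1) were 0 without background correction, with the deposited log2 values, with detection on both arrays or at 3-fold, and 2 with no filter. On APNL (0) there was 1 with no filter. On Primary neuron, 0 were higher (2) with detection on both arrays and 0 lower (1) at 3-fold. Between APNL+AuEMF and APNL (1 higher), 0 were higher without background correction, with the deposited values or at 3-fold, and 2 with no filter. Against Primary neuron, 1 was higher on APNL+AuEMF at 1.5-fold, and on APNL 0 were higher at 3-fold and 1 lower with detection on both arrays. At a detection p-value under 0.001 the member probes detected were 2 on APNL+AuEMF, 1 on APNL, 4 on Primary neuron and 1 on Fibroblast. Nr4a2 was then detected on Primary neuron only, Otx2 no longer on APNL, En2 no longer on APNL+AuEMF and Lmx1a on no array.

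Without background correction and with the deposited values, log2 differences shrank in size: on Primary neuron against Fibroblast Otx2 was 2.30 and En2 1.37, on APNL+AuEMF against Primary neuron En2 was -1.45, and on APNL against Primary neuron Otx2 was -2.28 and En2 -1.48. The place of Otx2 between Fibroblast and Primary neuron on APNL, 10.2%, was 0.368% with Fibroblast at its lowest detected level. That setting was chosen after seeing the data, as were raw intensity and the deposited values for this measure. Raw intensity gave 8.89% on APNL and 31.4% on APNL+AuEMF, and the deposited values gave 12.9% and 32.7%.

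The other pathway genes together gave the following counts. On APNL+AuEMF against Fibroblast (6 higher, 1 lower), 11 were higher and 8 lower at 1.5-fold, 0 were lower without background correction, with normexp at offset 50, with the deposited values or at 3-fold, and 2 were lower at a detection p-value under 0.05 or with no filter. On APNL (1 higher), 0 were higher with detection on both arrays, 5 with no filter and 4 at 1.5-fold. On Primary neuron (14 higher, 12 lower), 9 were higher with detection on both arrays, 23 with no filter, and 5 lower at 3-fold. Between APNL+AuEMF and APNL (6 higher, 0 lower), 0 were higher at 3-fold and 7 lower at 1.5-fold. Between APNL+AuEMF and Primary neuron (7 higher, 10 lower), 3 were higher without background correction or with the deposited values, 4 with normexp at offset 50 and 2 at 3-fold, and 5 were lower at 3-fold. Between APNL and Primary neuron (10 higher, 15 lower), 4 were higher and 9 lower at 3-fold, and 18 and 23 at 1.5-fold. Scaling in place of quantile normalization moved the median of probes detected on both arrays from -0.16 to -0.34 for Primary neuron against Fibroblast. Signal near the control beads limits every value at or under the detection limit.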
